A study of Mus musculus with 8 samples.

Results

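Lyve1+ Folr2+ resident macrophages of mouse inguinal fat were described from droplet single-cell RNA-sequencing of the stromal vascular fraction, the cells left once digested fat has been freed of its floating adipocytes. The cells were chosen by their own counts of unique molecular identifiers (UMIs, 1 for each captured transcript). A cell was taken when the complement genes C1qa, C1qb and C1qc summed to at least 5 UMIs, when Lyve1, Folr2, Cd209f and Fcna summed to at least 3 UMIs, and when Pdgfra, Pecam1, Cd3e and Cd79a were all at 0. Of 36370 barcodes kept within 700 to 30000 UMIs, 200 to 8000 genes and at most 10% mitochondrial UMIs, 2887 (7.94%) met this rule. The deposited tables held 44427 barcodes in all. Libraries carry the numbers of their labels, and values below are always in the order Ad-Lib 1, 3, 5 and 7 and TAN 2, 4, 6 and 8. The rule took 685, 378, 383 and 420 cells from the Ad-Lib libraries and 295, 235, 218 and 273 cells from the TAN libraries. Nearest to them were 1084 cells with the same C1q minimum and the same genes at 0 but a four-gene sum of at most 2, called Lyve1-low C1q+ macrophages below. All mice were C57BL/6 by the labels (C57BL/6J in the study's methods) and male. The inguinal depot was digested with collagenase, red cells were lysed and, by the study's methods, the lymph nodes were left out. The Ad-Lib mice had food at all times, and the TAN mice had it only in 2 nocturnal windows and fasted in between. The labels give an age of 8 weeks for every library, whereas the study's text describes older mice, so the age is not certain. The study's text speaks of replicates as animals, the labels do not say whether a library was made from 1 mouse, and p-values measure the spread between libraries.

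Macrophages that carry LYVE1, a receptor for hyaluronan, and FOLR2, the beta form of the folate receptor, lie along vessels and in connective tissue of many organs, fat included. They clear proteins, haem and dying cells with endocytic receptors such as CD163 and MRC1, and they secrete complement, chemokines and growth factors. They renew themselves largely by local division and take in blood monocytes slowly. In fat they are set apart from macrophages with much MHC class II and from the lipid-associated macrophages that gather around dying adipocytes.

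The libraries held 25320800 to 37140950 UMIs each. The median member had 6124, 6578.5, 6881 and 5944 UMIs in the Ad-Lib libraries and 7112, 6101, 4492 and 5880 in the TAN libraries, a difference of group means of -486 UMIs that did not pass an exact two-sided permutation test over the 70 ways to divide the 8 libraries (p = 0.486; the smallest p this design allows is 0.0286). The mitochondrial share of the median member was 2.42 ± 0.442% in Ad-Lib and 3.06 ± 0.362% in TAN (SD, n = 4 libraries each; exact permutation p = 0.143). Any pair of libraries shared 2 to 14 kept barcodes, and across the 28 pairs only 1 shared barcode was a member in both. TAN 2 stood apart from the other libraries in Cxcl13, Cd55 and C3, and the number of genes called between the groups moved when it or Ad-Lib 1 was left out. Both are given where they touch a result. Markers of other cell types were summed in the members. Of 7 lymphatic endothelial markers, the other vessel-wall population with LYVE1, the sum was 5.78 to 10.9 CPM in the Ad-Lib and 3.42 to 13.8 CPM in the TAN libraries, with Mmrn1 and Reln at 0 in every library and Prox1 at 0.639 CPM (counts scaled to the summed member UMIs of the library). The 12 adipocyte progenitor markers summed to 144 to 364 CPM in the Ad-Lib and 87.0 to 234 CPM in the TAN libraries, and the 12 adipocyte markers to 199 to 262 CPM in the Ad-Lib and 177 to 499 CPM in the TAN libraries. The 5 erythroid genes varied most, from 14.8 to 969 CPM in the Ad-Lib and 20.5 to 1028 CPM in the TAN libraries. The 8 monocyte markers summed to 266 to 358 CPM in the Ad-Lib and 175 to 278 CPM in the TAN libraries, and the 3 that could be tested had negative log2 fold changes (median -0.66, 2 at an unadjusted p under 0.05, none called). The 8 B cell markers summed to 358 to 485 CPM in the Ad-Lib and 327 to 435 CPM in the TAN libraries.

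The label was checked with marker genes that the rule did not use, and both were present. F13a1, which encodes a transglutaminase of clotting and a marker given for these cells, stood at 2038 ± 239 CPM (SD over 8 libraries) in the members and 759 ± 73.3 CPM in the Lyve1-low cells. Ccl8, a chemokine ligand and the other marker outside the rule, stood at 1981 ± 532 against 189.7 ± 70.04 CPM. F13a1 had a UMI in 97.8% of members on the mean of libraries and Ccl8 in 67.7%, against 2.46% and 6.02% of Cd79a+ barcodes, a B cell gate that should lack both and so gives the background from free RNA (median depth 3107 to 6775 UMIs by library). The macrophage genes Csf1r (984 ± 96.6 CPM), which encodes the receptor for macrophage colony-stimulating factor, Adgre1 (337 ± 43.2 CPM), which encodes F4/80, and Mertk (69.2 ± 15.7 CPM) were present in every library. Because members and Lyve1-low cells were divided by their counts, these levels are a description and were given no test.

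The members and the Lyve1-low cells were set side by side gene by gene. Among genes at 50 CPM or more in either population, the 20 with the largest mean log2 ratio of members over Lyve1-low cells included the choosing genes Lyve1, Fcna, Cd209f and Folr2 themselves. The others included 3 further Cd209 lectins, Cd209g, Cd209d and Cd209b, whose near-identical sequences make the share of reads of each copy uncertain. Timd4, the phosphatidylserine receptor of efferocytosis, stood at 98.2 ± 10.6 CPM in members and 5.70 ± 7.55 CPM in Lyve1-low cells, and it had a UMI in 26.2% and 1.77% of the cells. Ednrb, which encodes an endothelin receptor, stood at 604 ± 128 against 38.0 ± 11.3 CPM. Of complement genes, C4b was at 721 ± 151 against 117 ± 30.5 CPM, Cfb at 135 ± 31.4 against 13.5 ± 7.25 CPM and C6, a part of the membrane attack complex, at 95.2 ± 9.49 against 4.46 ± 2.27 CPM. These 3 were higher in the members of all 8 libraries, whereas C3 (mean log2 ratio -0.14) was higher in 3 of 8 and Cfd, the factor D gene (-0.56), in 1 of 8. Cd163, the receptor for haemoglobin bound to haptoglobin, was at 1046 ± 123 against 346 ± 64.5 CPM. At the other end stood Lyz1, Fn1, Ear2 and Il1b. Ccr2, the receptor by which monocytes leave the marrow, was at 202 ± 45.2 CPM in members and 855 ± 151 CPM in Lyve1-low cells, and the MHC class II gene H2-Aa at 4773 ± 697 against 7101 ± 507 CPM. MHC class II was thus high in both populations, and H2-Aa differed far less than Ccr2.

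**Figure D1:**
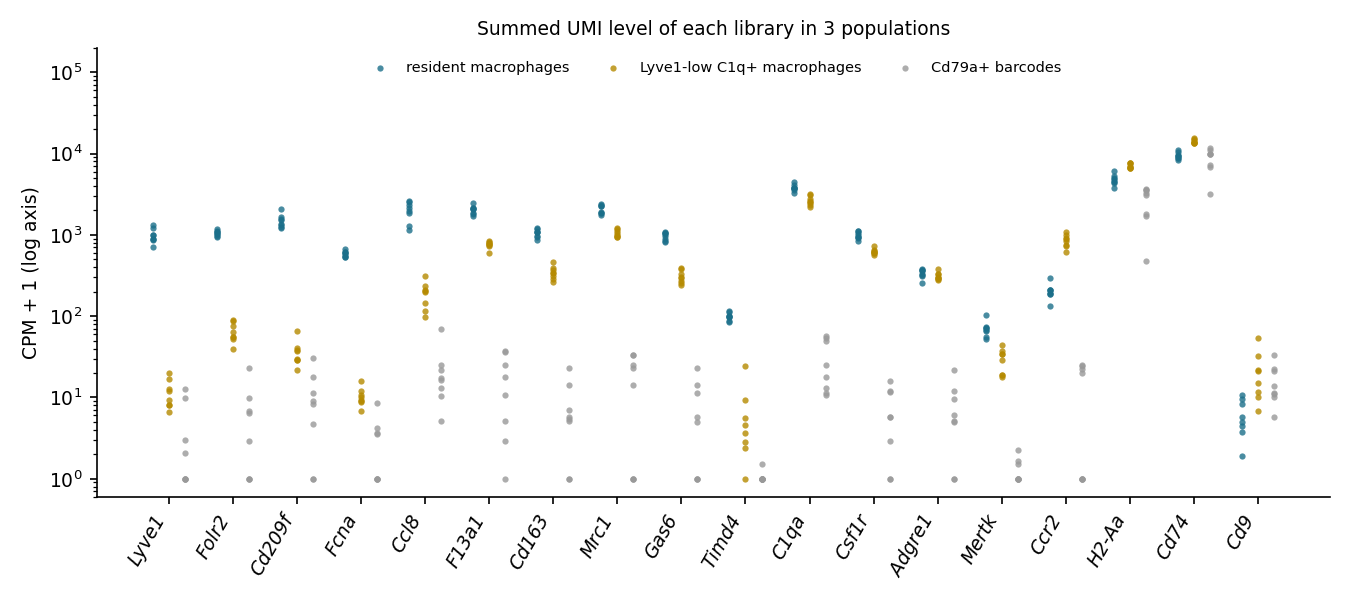
Summed level of 18 genes in each of the 8 libraries, as CPM + 1 on a log axis. The populations are the resident macrophages, the Lyve1-low C1q+ macrophages and the Cd79a+ barcodes. The last give the free-RNA background only for genes that B cells lack. H2-Aa and Cd74 had a UMI in 94.2% and 100% of the Cd79a+ barcodes on the mean of libraries, so for them the gate gives no background. Each point is 1 library. Lyve1, Folr2, Cd209f, Fcna and C1qa helped to choose the cells, and Ccr2 ran the other way, at 202 CPM in members and 855 CPM in Lyve1-low cells.

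The four-gene sum had no gap at the chosen limit. Among the 3971 C1q+ macrophages, 600 cells had a sum of 0, 223 cells had 2 UMIs, just outside the rule, and 213 cells had 3 UMIs, just inside it. Ccl8 stood at 306 CPM in the cells with 2 UMIs and 533 CPM in those with 3, and F13a1 at 1002 and 1139 CPM. On either side of the limit F13a1 was thus nearly level, and Ccl8 was higher inside it. Over the whole range of the sum, from 0 through 1 to 2, 3 to 5, 6 to 10 and over 10 UMIs, Ccl8 went from 125 through 279, 598 and 796 to 2607 CPM. Timd4 ran from 1.63 through 10.9, 17.9 and 34.8 to 124 CPM. Ccr2 ran the other way, from 1009.9 through 644, 426 and 294 to 153 CPM. Lgals3, which encodes galectin-3, went from 777 to 289 CPM, and H2-Aa stayed between 6159 and 7301 CPM up to a sum of 10 and stood at 4226.5 CPM above it. Depth moved with the sum as well, from a median of 5509 UMIs at 0 to 3677 at 3 to 5 and 7149.5 above 10, so the bins differ in depth as well as in kind. These values pool all libraries and carry no test.

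Resident macrophages made up a smaller share of the kept cells after TAN feeding. They were 13.3, 7.73, 10.1 and 11.3% of kept barcodes in the Ad-Lib libraries and 6.83, 4.77, 3.86 and 6.96% in the TAN libraries. Every TAN library was below every Ad-Lib library, with means of 10.6 ± 2.34% and 5.61 ± 1.54% (SD, n = 4 each), a difference of -5.00 percentage points (exact two-sided permutation p = 0.0286, the smallest possible; adjusted over the 3 shares tested, 0.0286). The exact 95% binomial intervals, which cover counting error only, ran from 3.37 to 4.39% in TAN 6, the lowest library, and from 12.4 to 14.3% in Ad-Lib 1, the highest. With lymphoid cells left out of the denominator the difference was -3.93 points with the same p. Leaving out any of the TAN libraries gave an exact permutation p of 0.0571, and leaving out any of the Ad-Lib libraries kept it at 0.0286. A share says nothing of absolute cell numbers, which these data do not measure.

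Within the C1q+ macrophages the members were 77.8, 73.1, 73.4 and 75.8% in Ad-Lib and 72.8, 62.3, 71.5 and 66.4% in TAN. The groups again did not overlap, the highest TAN value lying just under the lowest Ad-Lib value, and the means were 75.0 ± 2.23% and 68.3 ± 4.82% (difference -6.77 points, exact permutation p = 0.0286). This call held in part of the other settings. At a four-gene minimum of 5 the difference was -8.10 points and with the highest doublet scores removed -6.79 points, with the same p, which was also kept without each TAN library. Once every cell had been thinned to 2000 UMIs the difference was -4.07 points (exact permutation p = 0.171), and without Ad-Lib 1, 3, 5 or 7 in turn it was -7.41 to -5.83 points with p between 0.0857 and 0.143.

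**Figure D2:**
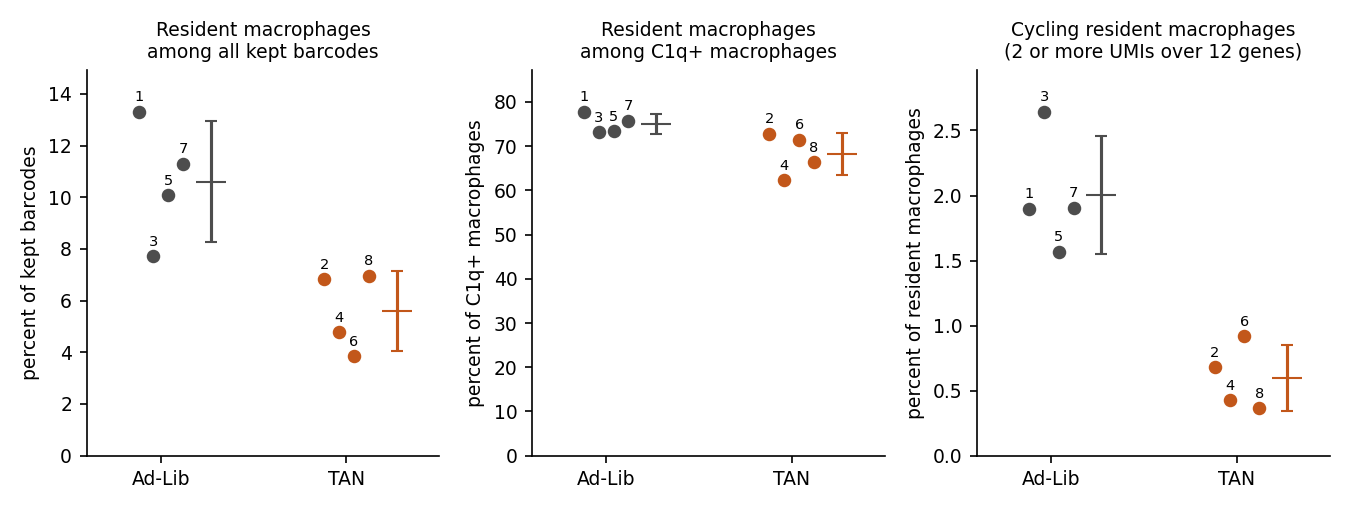
Share of resident macrophages among kept barcodes (left) and among C1q+ macrophages (middle), and share of resident macrophages with 2 or more UMIs over 12 mitosis genes (right), in percent. Each point is 1 library with its number, and the bars show the group mean ± SD (n = 4). In all 3 panels the TAN libraries lie below the Ad-Lib libraries, with a difference of -1.41 points in the right panel.

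Across 9323 genes tested on the summed counts of the members, 36 were called different between TAN and Ad-Lib with a 1.5-fold change or more and an adjusted p under 0.05, which is 0.386% of those tested. Of these 11 were higher (0.118%) and 25 lower (0.268%) in TAN. All p-values of gene tests here are from edgeR (quasi-likelihood), adjusted by Benjamini-Hochberg over all genes tested, and fold changes are TAN over Ad-Lib on the log2 scale. At an unadjusted p under 0.05 were 1069 genes, 11.5% of those tested, the background for such counts in lists, and DESeq2 called 43, of which 31 were among the 36. The median log2 fold change over all genes tested was 0.00. In 4.73% of genes tested the 4 TAN values did not overlap the 4 Ad-Lib values (2.18% with TAN above and 2.55% with TAN below). The count of 36 fell to 17 without Ad-Lib 1 and to 18 without TAN 2, and 8 of the 36 genes stayed called in every alternative that tested them. These 8 were Ccnd1, Thrsp, Me1, Fasn, Mki67, Top2a, Stmn1 and Lgals3. In the 710 members with under 3 UMIs of other-lineage markers, where 4366 genes were tested, 2 of the 36 were called, Ccnd1 and Lgals3. There 15 lost their calls, Hmgb2, Tagap, Mid1 and Polr2a among them, and 19 could not be tested. The 19 included Thrsp, Me1, Fasn, Mki67, Top2a and Stmn1, so this alternative says nothing of them. Thrsp and Col1a1 are also among the markers by which cells were left out there.

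Ccnd1, which encodes cyclin D1, the partner of CDK4 and CDK6 that carries growth signals into G1, had the smallest adjusted p and rose in TAN. It lies at chr7:144929931-144939925 (GRCm38, GENCODE M21). Its level was 96.4, 115, 137 and 131 CPM in the Ad-Lib libraries and 235, 293, 258 and 278 CPM in the TAN libraries, so that the lowest TAN library stood well above the highest Ad-Lib library (log2 fold change 1.16, SE 0.10, adjusted p = 1.55e-05). More cells carried it as well: a UMI was found in 34.5 ± 5.82% of Ad-Lib and 48.4 ± 2.35% of TAN members (exact permutation p = 0.0286), and in 17.8 ± 2.56% and 32.1 ± 2.03% at 2000 UMIs per cell, against 0.695% of Cd79a+ barcodes. In the Lyve1-low macrophages of the same libraries Ccnd1 was at 211 ± 26.0 and 496 ± 68.6 CPM (log2 fold change 1.25, SE 0.11, adjusted p = 9.70e-07).

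Thrsp, Me1 and Fasn also rose. Thrsp, a regulator of lipogenesis, was at 6.03, 6.55, 12.7 and 8.95 CPM in Ad-Lib and 37.4, 68.4, 28.3 and 47.6 CPM in TAN (log2 fold change 2.45, SE 0.26, adjusted p = 6.22e-05). Me1, the malic enzyme that supplies NADPH, was at 2.32, 1.54, 1.82 and 0.746 CPM and 16.2, 13.7, 10.0 and 14.6 CPM (log2 fold change 3.01, SE 0.32, adjusted p = 6.22e-05), from 21 and 88 UMIs in all. Fasn, the fatty acid synthase, was at 11.6, 10.0, 11.7 and 9.32 CPM and 33.9, 45.8, 21.9 and 29.9 CPM (log2 fold change 1.63, SE 0.22, adjusted p = 8.49e-04). None of these 3 overlapped between the groups, as in 2.18% of all genes tested with TAN above. Acaca, which makes malonyl-CoA, rose by 1.15 (adjusted p = 0.0293), Scd1, the stearoyl-CoA desaturase, by 1.33 (adjusted p = 0.0487) and Dgat2, which makes triglyceride, by 1.43 (adjusted p = 0.0494). Scd1 and Dgat2 overlapped between the groups, and the calls of Acaca, Scd1 and Dgat2 were lost in 5, 8 and 10 of 15 alternatives, among them the leaving out of Ad-Lib 1, 3 or 7 or of TAN 2 or 4 for all 3.

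Thrsp, Me1, Fasn and Scd1 were also counted outside the macrophages. In the Cd79a+ barcodes the Ad-Lib and TAN means were 16.2 and 44.5 CPM for Thrsp, 2.94 and 10.6 CPM for Me1, 25.3 and 40.5 CPM for Fasn and 249.6 and 357 CPM for Scd1. The Ad-Lib means of this gate rest on 21, 459, 48 and 18 barcodes, with no UMI of Thrsp or Me1 in Ad-Lib 1 and none of Me1 in Ad-Lib 7. In the Ad-Lib members the means of the 4 genes were 8.57, 1.61, 10.6 and 25.3 CPM, each below that of the gate, although Thrsp was higher in the gate only in Ad-Lib 5 and 7. In TAN the members held 45.4, 13.6, 32.9 and 61.7 CPM. All 8 adipocyte markers that could be tested in members had positive log2 fold changes, with a median of 0.42, and only Thrsp was called. Adipoq, the adipocyte hormone gene, stood at 5.97 and 5.69 CPM. The part of RNA from other cells in the rise of these genes was not tested. Ccnd1 stood at 1.20 and 6.47 CPM in the Cd79a+ barcodes and at 119.7 and 266 CPM in the members.

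Of 20 tested genes of fasting, feeding and insulin action, Fasn and Scd1 were called higher (background 0.118%) and none lower (0.268%), with a median log2 fold change of -0.03 over the list. Among the others, Acly, the ATP-citrate lyase, had a log2 fold change of 0.44 (adjusted p = 0.120), Cpt1a, which admits fatty acids to mitochondria, -0.50 (adjusted p = 0.0813), and Insr, the insulin receptor, 0.01 (adjusted p = 0.991). Lepr, the leptin receptor, had 0 UMIs among 18566316 member UMIs, which allows up to 0.162 CPM. The remaining higher genes were Mid1, a ubiquitin ligase of microtubules (log2 fold change 1.13, adjusted p = 0.00104), Dmpk, a kinase best known from myotonic dystrophy (1.16, adjusted p = 0.0268), Pde2a, a cyclic nucleotide phosphodiesterase (0.63, adjusted p = 0.0364), and Sbno2 (0.60, adjusted p = 0.0132). Mid1 stayed called in all alternatives but that restricted to 710 members nearly free of other-lineage UMIs. Dmpk lost its call without Ad-Lib 1 or 3 or TAN 2 or 6, Sbno2 without Ad-Lib 1 or 5 or TAN 4, and Pde2a without any single library but TAN 6.

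Dividing members were fewer after TAN feeding. A cell was counted as cycling when it held at least 2 UMIs over 12 mitosis genes, Mki67, Top2a, Cdk1, Ccnb1, Ccnb2, Ccna2, Birc5, Cdc20, Cenpf, Cenpe, Tpx2 and Ube2c. By this count 13, 10, 6 and 8 members cycled in the Ad-Lib libraries and 2, 1, 2 and 1 in the TAN libraries, 43 cells in all. These were 1.90, 2.65, 1.57 and 1.90% and 0.678, 0.426, 0.917 and 0.366% of the members, with no overlap and means of 2.00 ± 0.456% and 0.597 ± 0.253% (exact two-sided permutation p = 0.0286, 0.0286 after adjustment over the 3 shares). At 2000 UMIs per cell the difference was -0.848 points with the same p, and it ranged from -1.55 to -1.19 points when 1 library was left out. In the Lyve1-low macrophages 5.64, 5.76, 5.04 and 7.46% and 3.64, 6.34, 8.05 and 3.62% of cells met the same count, and there the groups overlapped. Of the Cd79a+ barcodes 4.76, 2.18, 0 and 0% and 1.19, 0, 0.719 and 3.48% met it. The part of free RNA in the count was not tested.

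Several genes of dividing cells were also lower in the summed counts, and 2 of them, Mki67 and Top2a, are part of that count. Of 22 genes of the cycling list, 9 had enough counts to be tested, and 4 of these were called lower (background 0.268%) with a median of -0.40 over the 9. The count filter keeps a gene with enough counts in 1 group alone, and Mki67 and Top2a passed it through the Ad-Lib libraries, where they were higher. The 4 of 9 are therefore a description. Mki67, the Ki-67 gene at chr7:135689784-135716361, was at 24.6, 23.5, 13.8 and 17.5 CPM in Ad-Lib and 0.983, 1.37, 2.74 and 1.83 CPM in TAN, from 252 and 10 UMIs (log2 fold change -3.61, SE 0.38, adjusted p = 6.22e-05). Top2a, topoisomerase II alpha at chr11:98992943-99024189, was at 14.1, 22.0, 18.2 and 14.5 and 0.983, 2.74, 3.65 and 2.44 CPM (log2 fold change -2.89, SE 0.33, adjusted p = 1.68e-04). Stmn1, the microtubule-destabilising protein stathmin, was at 44.5, 32.4, 42.6 and 35.8 and 7.37, 4.79, 21.0 and 4.88 CPM (log2 fold change -2.18, SE 0.27, adjusted p = 3.26e-04). In all 3 the highest TAN library lay below the lowest Ad-Lib library, as in 2.55% of all genes tested. Hmgb2, a chromatin protein also present outside division, fell less, from 159, 147, 186 and 174 to 96.4, 103, 103 and 125 CPM (log2 fold change -0.64, SE 0.09, adjusted p = 0.00104), a call lost with cells chosen at 2000 UMIs. Outside the list, Prc1, which bundles the midzone of the spindle, fell by 4.14 on the log2 scale (adjusted p = 0.0198, 79 and 2 UMIs), a call lost without TAN 2, TAN 4 or TAN 6 and by DESeq2 among the 9 of 16 alternatives in which it could be tested, and Hist1h2ae, one of many similar histone genes, fell by 3.38 (adjusted p = 0.00445), a call lost by DESeq2. The replication genes Pcna (-0.21, adjusted p = 0.408), Mcm3 (0.03, 0.971) and Mcm6 (-0.27, 0.695) did not pass the test. Ccnd1 was thus higher in the same 4 libraries in which the mitosis genes were lower.

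The promoters of the fallen mitosis genes are shown because genes of this kind are known to share promoter elements, the CCAAT box and the TTTGAA element of the cell cycle genes homology region. RefSeq promoter windows (GRCm38.p6, 250 bases before to 50 after the start) were at hand for 26 of the 36 called genes. Both motifs were searched as letters on both strands, so that CCAAT also stands as ATTGG in these windows. The element TTTGAA likewise also stands as TTCAAA, and both motifs are in capitals here, with no overlap between them. The 4 windows read 5′ to 3′ on the strand of the gene, and Prc1 has 2 overlapping windows, of which the first is printed.
Mki67 (chr7:135716330-135716629, minus strand): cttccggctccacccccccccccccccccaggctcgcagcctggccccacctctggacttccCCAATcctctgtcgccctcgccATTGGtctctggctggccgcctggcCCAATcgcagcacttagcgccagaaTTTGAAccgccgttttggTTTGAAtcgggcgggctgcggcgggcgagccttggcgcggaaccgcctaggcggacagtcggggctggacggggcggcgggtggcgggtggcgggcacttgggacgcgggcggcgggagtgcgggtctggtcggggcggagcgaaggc
Top2a (chr11:99024140-99024439, minus strand): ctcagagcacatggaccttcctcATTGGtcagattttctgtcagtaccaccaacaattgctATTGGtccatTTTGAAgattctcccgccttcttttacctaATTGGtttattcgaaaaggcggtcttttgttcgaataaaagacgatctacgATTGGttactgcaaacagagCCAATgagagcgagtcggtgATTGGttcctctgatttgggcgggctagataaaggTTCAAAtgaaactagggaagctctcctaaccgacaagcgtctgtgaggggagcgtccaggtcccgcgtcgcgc
Hmgb2 (chr8:57511593-57511892, plus strand): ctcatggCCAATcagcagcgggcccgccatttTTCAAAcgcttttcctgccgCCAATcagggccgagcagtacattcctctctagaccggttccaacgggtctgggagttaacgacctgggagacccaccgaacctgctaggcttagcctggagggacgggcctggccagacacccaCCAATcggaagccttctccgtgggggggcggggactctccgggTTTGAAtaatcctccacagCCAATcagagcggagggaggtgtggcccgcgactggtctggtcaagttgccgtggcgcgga
Prc1 (chr7:80294201-80294500, plus strand): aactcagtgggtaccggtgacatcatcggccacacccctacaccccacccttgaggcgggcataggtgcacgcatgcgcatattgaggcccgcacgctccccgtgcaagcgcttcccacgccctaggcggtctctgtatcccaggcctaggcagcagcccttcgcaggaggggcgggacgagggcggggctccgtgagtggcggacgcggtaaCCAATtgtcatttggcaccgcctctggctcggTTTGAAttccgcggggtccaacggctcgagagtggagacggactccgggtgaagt

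CCAAT and TTTGAA occurred 3 and 2 times in the Mki67 window, 6 and 2 times in that of Top2a, 4 and 2 times in that of Hmgb2 and once each in that of Prc1. Of 32851 windows of the same length, 37.4% held CCAAT, 17.9% held TTTGAA and 6.95% held both. These matches describe letters only and say nothing of binding in these cells. Stmn1 and Hist1h2ae were not in the promoter table.

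**Figure D3:**
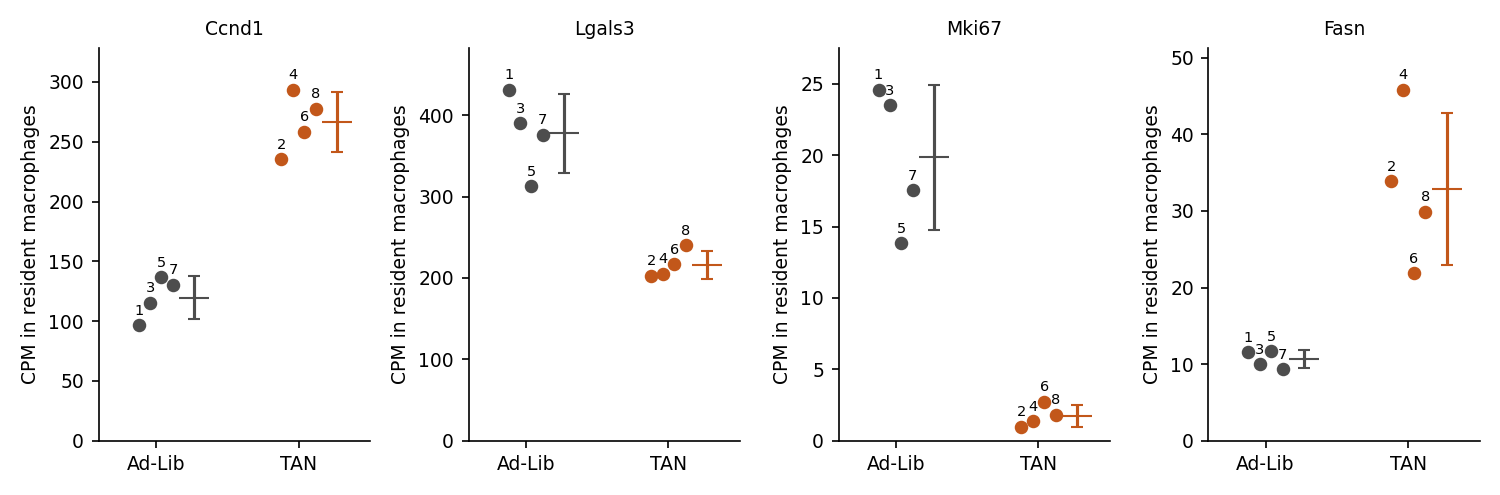
Level in resident macrophages, in CPM, of Ccnd1, Lgals3, Mki67 and Fasn in each library (points with library numbers) with the group mean ± SD (bars, n = 4). Ccnd1 and Fasn are higher in every TAN library than in any Ad-Lib library, and Lgals3 and Mki67 are lower in every TAN library.

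Lgals3, which encodes the carbohydrate-binding protein galectin-3 at chr14:47367751-47386160, fell in TAN. Ccnd1 and Lgals3 were the only genes called in all 16 alternatives. Lgals3 was at 431, 390.3, 313 and 376 CPM in Ad-Lib and 203, 205, 217 and 240.5 CPM in TAN (log2 fold change -0.82, SE 0.11, adjusted p = 0.00104). It was the only gene called, at a background of 0.268% lower, among 9 tested genes of lipid-associated macrophages, whose median was -0.09. Trem2, the lipid receptor that defines those cells, had a log2 fold change of -0.48 (adjusted p = 0.226) and Cd63, a lysosomal tetraspanin, -0.04 (adjusted p = 0.918). Gpnmb, Itgax and Spp1 were too rare to test. In the Lyve1-low macrophages Lgals3 was at 781 ± 117 and 555 ± 98.1 CPM (log2 fold change -0.50, SE 0.13, adjusted p = 0.0918).

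Of 14 tested genes that respond to glucocorticoids, 2 were called lower (background 0.268%), with a median of -0.10. Tsc22d3, which encodes the glucocorticoid-induced leucine zipper GILZ, was at 283, 231, 322 and 249.9 CPM in Ad-Lib and 127, 175, 174 and 223 CPM in TAN (log2 fold change -0.65, SE 0.12, adjusted p = 0.0196). Klf9, a zinc-finger repressor, was at 111, 75.5, 170.5 and 94.0 and 49.7, 54.7, 72.1 and 74.5 CPM (log2 fold change -0.86, SE 0.18, adjusted p = 0.0293). In both, every TAN library lay below every Ad-Lib library, as in 2.55% of all genes tested, although Tsc22d3 lost its call without Ad-Lib 1, TAN 2 or TAN 6 and Klf9 without Ad-Lib 1, TAN 2, TAN 4 or TAN 6. Per1, a clock gene that is also in this list, had a log2 fold change of -0.65 (adjusted p = 0.0734). Fkbp5 (-0.11, adjusted p = 0.939) and Dusp1 (0.06, 0.911) did not pass the test, and Nr3c1, the receptor itself, stood at 291 ± 12.8 and 319 ± 41.6 CPM (0.12, 0.675). None of 14 tested clock genes was called by edgeR (median -0.15, 4 at an unadjusted p under 0.05; DESeq2 called Per1), with Dbp at -0.43 (adjusted p = 0.230) and Per2 at 0.40 (0.224). At the same threshold Tsc22d3 was also called in the Lyve1-low macrophages (-0.79, adjusted p = 0.0183).

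The other named genes that fell had less in common. Tagap, a GTPase-activating protein of leukocytes, fell by 1.32 on the log2 scale (adjusted p = 0.00104). Slamf7, a receptor of the signalling lymphocyte activation family, fell by 0.79 (adjusted p = 0.0132), P3h2, a collagen prolyl hydroxylase, by 0.73 (adjusted p = 0.0122) and Polr2a, the large subunit of RNA polymerase II, by 0.70 (adjusted p = 0.00269). Slamf7 and P3h2 lost their calls without Ad-Lib 1. Col1a1, the collagen gene of fibroblasts, fell by 1.70 (adjusted p = 0.0487), at 15.5, 6.94, 12.4 and 24.2 CPM in Ad-Lib and 2.95, 2.74, 8.21 and 5.49 CPM in TAN. Its groups overlapped, and in Pdgfra+ progenitor barcodes of the same libraries it stood at 2791 and 2063 CPM. All 9 tested progenitor markers had negative log2 fold changes in the members, with a median of -0.56, and the part of RNA from those cells in the Col1a1 result was not tested. Col1a1 lost its call without Ad-Lib 1 or 7, without any TAN library, and with the highest doublet scores removed. The other 10 genes that fell, by 0.62 to 2.36 on the log2 scale, each lost their calls in 5 to 10 alternatives.

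**Figure D4:**
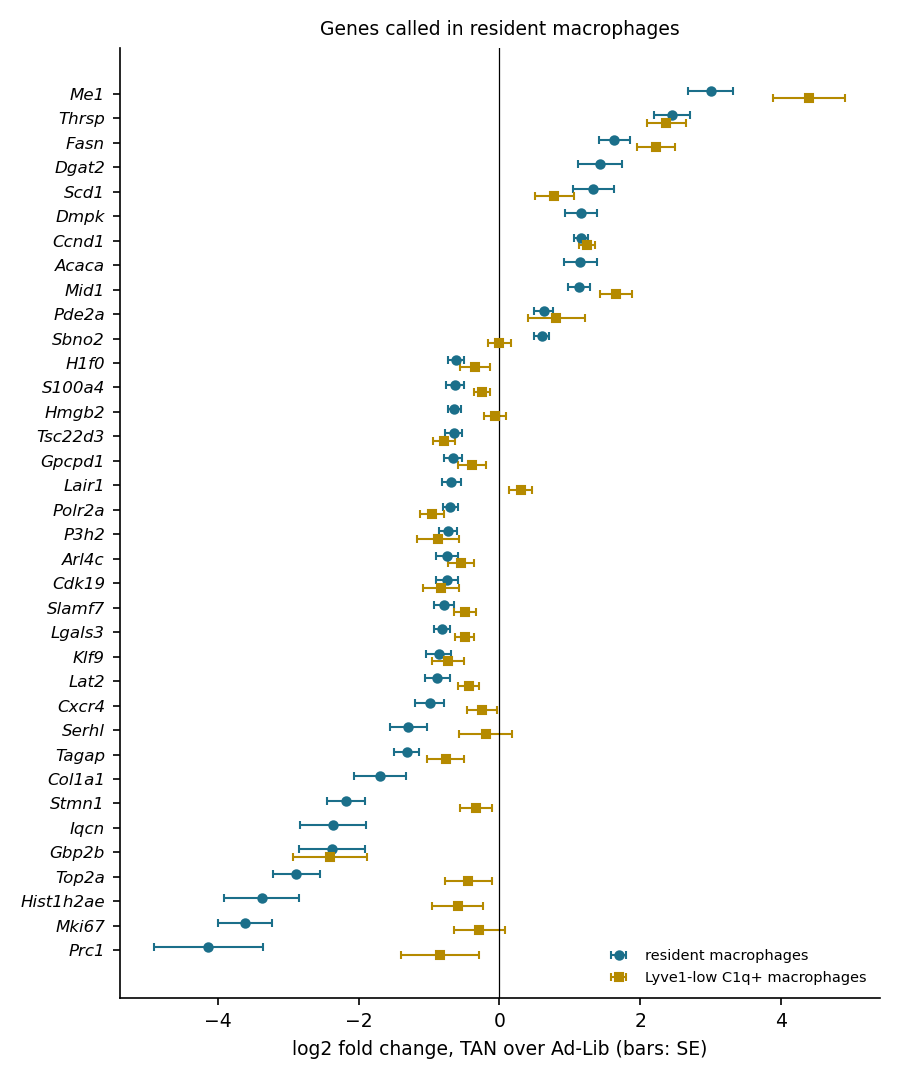
Log2 fold change of TAN over Ad-Lib for the 36 genes called in resident macrophages (circles, bars are standard errors) and for the same genes in the Lyve1-low C1q+ macrophages where they could be tested (squares). Me1, Thrsp, Fasn and Ccnd1 lie to the right in both populations, and Mki67, at -3.61 in the resident macrophages, lies near 0 in the Lyve1-low cells.

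The markers outside the rule were not called. F13a1 was at 2048 ± 121 and 2028 ± 344 CPM in Ad-Lib and TAN (log2 fold change -0.03, adjusted p = 0.940). Lyve1 was at 889 ± 139 and 1073 ± 218 CPM and Folr2 at 1093 ± 61.7 and 1006 ± 61.9 CPM, given with no test because both helped to choose the cells. Ccl8 was at 2505, 2354, 1864 and 2582 CPM in Ad-Lib and 2154, 1150.3, 1943 and 1296 CPM in TAN (log2 fold change -0.52, SE 0.17, adjusted p = 0.204), with overlapping groups, and was called in 1 alternative alone, without TAN 2 (log2 fold change -0.73, adjusted p = 0.0477). None of 26 tested genes of the resident signature was called (median -0.01, 10 at an unadjusted p under 0.05, a larger part than the 11.5% of all genes), nor of 12 macrophage identity genes (median -0.04, 2 at an unadjusted p under 0.05). In all C1q+ macrophages together, before the division by the four-gene sum, Lyve1 had a log2 fold change of 0.13 (adjusted p = 0.650), Folr2 -0.25 (0.168), Cd209f 0.03 (0.968) and Fcna -0.06 (0.847).

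Uptake and clearance genes were likewise without calls. Among 13 tested endocytic receptors (median -0.10, 1 at an unadjusted p under 0.05) Mrc1, the mannose receptor, stood at 2059 ± 298 and 2114 ± 286 CPM and Cd163 at 1105 ± 114 and 987 ± 114 CPM. Among 14 genes for the recognition of dying cells (median -0.22, 3 at an unadjusted p under 0.05) Gas6, the bridge between dying cells and the receptors MERTK and AXL, stood at 998 ± 94.98 and 932 ± 121 CPM, and Mertk had a log2 fold change of -0.35 (adjusted p = 0.251). Among 12 genes of haem and iron (median -0.05, 1 at an unadjusted p under 0.05) Hmox1, which breaks down haem, stood at 383 ± 28.8 and 351 ± 81.6 CPM and Slc40a1, the iron exporter, at 61.8 ± 11.5 and 75.6 ± 18.2 CPM. The 27 tested genes of lysosomes and lipid handling had no call either (median -0.05, 5 at an unadjusted p under 0.05), and the fatty acid binding protein gene Fabp4 had 0.70 (adjusted p = 0.0793). Of 15 tested complement genes (median 0.01, 5 at an unadjusted p under 0.05) Cfb, factor B of the alternative pathway, had -0.50 (adjusted p = 0.0696).

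Secreted signals and their receptors gave no edgeR call in the members. Of 15 tested chemokines (median -0.00, 8 at an unadjusted p under 0.05, again a larger part than 11.5%), Pf4 stood at 4157 ± 309 and 4215 ± 262 CPM, Ccl2, which draws monocytes, at 1472 ± 262 and 1479.6 ± 310.2 CPM, and Ccl24, which attracts eosinophils, at 678 ± 75.3 and 500.5 ± 70.6 CPM (-0.45, adjusted p = 0.0692). Of 15 tested cytokines and growth factors (median -0.07, 2 at an unadjusted p under 0.05) Retnla, a product of cells exposed to IL-4, stood at 9633 ± 739 and 8821 ± 1347 CPM and Igf1 at 422 ± 38.3 and 382 ± 89.5 CPM. Of 20 tested receptors (median -0.06, 4 at an unadjusted p under 0.05) Il1rl1, the IL-33 receptor, had -0.93 (adjusted p = 0.0720). DESeq2 called Il1rl1, and in the lists without an edgeR call it called no gene besides Il1rl1 and Per1. Slc6a2, the noradrenaline transporter, had 0 UMIs, and Maoa, which degrades noradrenaline, stood at 65.1 ± 5.89 and 55.3 ± 7.43 CPM (-0.24, 0.379). The 10 tested genes of alternative activation had no call (median -0.07, 3 at an unadjusted p under 0.05), with Socs3 at 0.57 (adjusted p = 0.0644), nor had the 12 of inflammatory activation (median -0.28, 5 at an unadjusted p under 0.05), with Tnf at -0.47 (0.242).

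Some lists leaned to one side without a call. 9 of 10 tested MHC class II genes had negative log2 fold changes (median -0.21, 5 at an unadjusted p under 0.05), among them Ciita, their master regulator, at -0.44 (adjusted p = 0.109) and H2-DMb1, a peptide loader, at -0.40 (0.0696). 17 of 21 interferon-induced genes were negative (median -0.22, 5 at an unadjusted p under 0.05), Gbp2 at -1.11 (adjusted p = 0.0644) and Ifi27l2a at -0.33 (0.131). Gbp2b, a neighbour of Gbp2 with similar sequence that is in no list and is named because it was called in both macrophage populations, fell by 2.38 in members (adjusted p = 0.0268), a call lost without TAN 2 or TAN 6 and at a four-gene minimum of 5. All 13 transcripts of the mitochondrial genome were positive (median 0.34, 12 at an unadjusted p under 0.05), as they were in Lyve1-low cells (median 0.36, 12 likewise, against 11.2% of all genes there), and mt-Cytb reached an adjusted p of 0.0364 at 0.45, under 1.5-fold. This runs beside the mitochondrial shares given above, and its part in other results was not tested. 11 of 14 heat shock genes, which digestion of tissue also raises, were positive (median 0.23, 7 at an unadjusted p under 0.05), with Hspd1 at 0.49 (adjusted p = 0.0654). The 20 immediate early genes had a median of -0.04, the 24 ribosomal protein genes 0.00, the 13 matrix genes -0.12 and the 5 genes of catecholamine handling -0.24, none with an edgeR call (4, 0, 3 and 3 at an unadjusted p under 0.05).

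Whether the response of the members differed from that of their neighbours was tested directly, as the difference of the TAN effects in members and Lyve1-low macrophages with the library as a block. Of 8411 genes, 4 were called (0.0476%), all lower in members relative to the Lyve1-low cells and all genes of dividing cells. Mki67 differed by -3.29 (SE 0.57, adjusted p = 0.0121), its Lyve1-low level being 83.5, 32.6, 64.0 and 163 CPM in Ad-Lib and 67.7, 88.5, 111 and 18.04 CPM in TAN. Stmn1 differed by -1.90 (SE 0.29, adjusted p = 0.00264), and the histone genes Hist1h1b by -4.41 (SE 0.62, adjusted p = 0.00115) and Hist1h2ae by -2.82 (SE 0.53, adjusted p = 0.0281). Hist1h1b was too rare in the members to enter the test on them alone, with 117 and 4 UMIs. It entered the test of the difference through the Lyve1-low cells, at 67.8 CPM there against 5.57 CPM in members. Top2a, at -2.50 (SE 0.57, adjusted p = 0.163), was not called. With Lyve1-low cells limited to the 600 with a four-gene sum of 0, no gene was called by edgeR (399 at an unadjusted p under 0.05). With all Lyve1-low cells, between 2 and 8 genes were called when 1 library was left out, with 2 without TAN 4 or TAN 6, 8 without Ad-Lib 7 and 7 without TAN 8.

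In the Lyve1-low cells 29 of 6637 genes were called (0.437%), 14 higher (0.211%) and 15 lower (0.226%), with 16 without Ad-Lib 7, 19 without TAN 4 and 48 without Ad-Lib 5. Called in both populations were 8 genes, Ccnd1, Fasn, Gbp2b, Me1, Mid1, Polr2a, Thrsp and Tsc22d3, which are 22.2% of the 36 and 27.6% of the 29. Both populations come from the same libraries, so this overlap is a description. Over all C1q+ macrophages 49 of 9920 genes were called (0.494%), 20 higher (0.202%) and 29 lower (0.292%), and 18 without TAN 2. The difference of the TAN effects was -0.07 (SE 0.13, adjusted p = 0.974) for Ccnd1, -0.31 (SE 0.14, adjusted p = 0.887) for Lgals3 and 0.11 (SE 0.31, adjusted p = 0.985) for Thrsp, and none of these passed the test.

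In TAN 2 a large part of the resident macrophages carried Cxcl13, the chemokine that draws B cells, together with Cd55 and C3. These genes were singled out after their values had been seen. Cxcl13 was found as 3188 UMIs in 164 of 295 members of TAN 2 (55.6%, 1567 CPM), against 2.75 to 6.59% of members and 14.6 to 52.2 CPM in the other 7 libraries. Cd55, a brake on complement at the cell surface, was found in 162 cells (54.9%, 394 CPM, elsewhere 14.2 to 32.8 CPM), and C3, the central complement protein, in 122 cells (41.4%, 189 CPM, elsewhere 23.2 to 47.0 CPM). All 3 were thus far above every other library. They occurred largely in the same cells: 134 cells held both Cxcl13 and Cd55, 89 held all 3, and Cd55 had a UMI in 81.7% of the cells with Cxcl13 and 21.4% of those without. In the Lyve1-low macrophages of TAN 2 Cxcl13 and Cd55 were each found in 6 of 110 cells, at 30.9 and 16.2 CPM, which were also the highest values of the 8 libraries there (elsewhere 0 to 16.6 and 1.16 to 13.6 CPM). In the Cd79a+ barcodes of TAN 2 Cxcl13 stood at 7.76 CPM and in the Pdgfra+ barcodes at 355 CPM, while C3 stood at 2195 CPM in the latter and Cd55 at 295 CPM in the former. The pattern was thus found in 1 of 4 TAN libraries, and none of the 3 genes was called between the groups (Cxcl13 adjusted p = 0.147, Cd55 0.107, C3 0.437). Only Ad-Lib 7 held other genes at 50 CPM or more and at least 4 times every other library, namely Cxcl9 and Saa3.

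**Figure D5:**
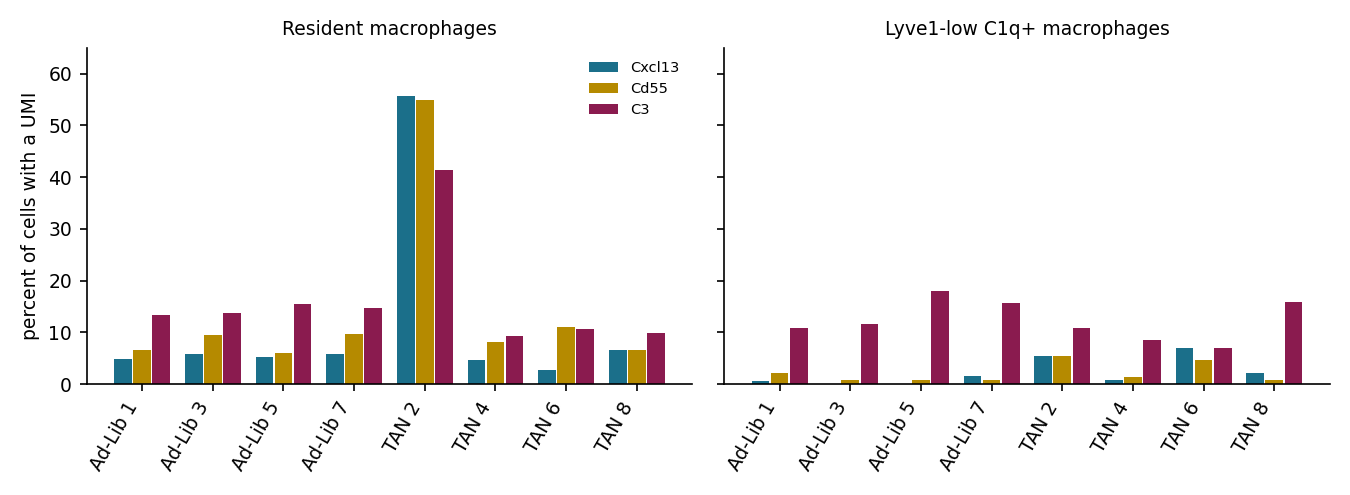
Percent of cells with at least 1 UMI of Cxcl13, Cd55 and C3 in each library, in resident macrophages (left) and Lyve1-low C1q+ macrophages (right). Only in the resident macrophages of TAN 2 do the bars reach 41.4 to 55.6%.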

How the data were processed

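The authors deposited 1 table of raw UMI counts per library, with genes by cell barcodes, as Cell Ranger made them for barcodes it called as cells, and no normalization had been applied to these counts. The submitters' processing notes name Cell Ranger 3.0.2 and Seurat, the file headers Cell Ranger 6.0.1, and the build was mm10 (GRCm38). Of 32285 gene identifiers, 32158 matched GENCODE M21, from which coordinates were taken.

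Members and gene lists were chosen with earlier results of these data known. The 286 C1q+ barcodes with the four-gene minimum but a UMI of an excluded lineage gene were left out. Doublets were kept, and 33 members were among the 1351 barcodes with the highest doublet scores (0.8% per 1000 barcodes), removed in an alternative. Counts were summed over members per library and tested with edgeR 4.0.16 (quasi-likelihood, TMM, filterByExpr, Benjamini-Hochberg over all genes tested) under R 4.3.3, and CPM are scaled to the summed member UMIs of the library. The study's test over single cells was not used, since cells are not replicates. The difference of effects between populations had the library as a block. Shares and medians were compared by an exact two-sided permutation test over libraries. Cells thinned to 2000 UMIs were members at 3 C1q and 1 four-gene UMIs, and 278 members were shallower. Zero counts were read as up to 3 counts, and intervals (95%, exact binomial) cover counting error only. Alternatives were DESeq2 1.42.0, other size factors, no filter on low counts, other gates, a mitochondrial limit of 20%, members with under 3 UMIs of other-lineage markers, and leaving out each library.

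Named were the marker and choosing genes, the up to 12 called genes with the smallest adjusted p in each direction, called list genes, up to 4 genes of a list, the 20 highest and 10 lowest ratios over Lyve1-low cells, and the leading genes of the difference test. Promoter sequences are from RefSeq (GRCm38.p6). Some genes that this rule names are not reported here.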

Additional observations from a re-analysis of the deposited data

Results flagged for a closer look

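Across 294 groups of 4 libraries, 19 held a library that stood apart from the other 3 of its group. Its gap to the nearest exceeded Dixon's 95% limit as a part of the whole range. The groups were made of 141 genes, the shares, and the member medians of UMIs, genes and mitochondrial percent. The genes were the choosing, marker and called genes, up to 4 of the highest of each list, and Cxcl13, Cd55 and C3. These last 3 were added after their values had been seen. The 19 are about as many as the 1 in 20 that chance gives, a rough comparison given that addition. All values are levels in resident macrophages. The pattern in TAN 2 was among them, with Cxcl13 at 1567 CPM in TAN 2 (the other 3 libraries of the group 14.6 to 21.9 CPM), Cd55 at 394 CPM in TAN 2 (the other 3 libraries of the group 18.3 to 32.8 CPM) and C3 at 189 CPM in TAN 2 (the other 3 libraries of the group 23.2 to 31.5 CPM). In TAN 8 the globin genes stood apart, with Hbb-bs at 578 CPM in TAN 8 (the other 3 libraries of the group 8.89 to 101 CPM), Hba-a1 at 236 CPM in TAN 8 (the other 3 libraries of the group 6.15 to 24.6 CPM) and Hba-a2 at 188 CPM in TAN 8 (the other 3 libraries of the group 2.74 to 24.6 CPM), and the copies of each globin chain share sequence.

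Among genes called between the groups, Stmn1 at 21.0 CPM in TAN 6 (the other 3 libraries of the group 4.79 to 7.37 CPM) and Prc1 at 1.22 CPM in TAN 8 (the other 3 libraries of the group 0 CPM) stood above their group. Likewise Gbp2b at 48.2 CPM in Ad-Lib 3 (the other 3 libraries of the group 15.3 to 19.7 CPM) and Pde2a at 89.1 CPM in TAN 8 (the other 3 libraries of the group 55.4 to 56.6 CPM) stood above theirs. Tagap at 7.87 CPM in TAN 2 (the other 3 libraries of the group 16.4 to 17.7 CPM) stood below its group. Of the other genes, F13a1 at 1868 CPM in Ad-Lib 3 (the other 3 libraries of the group 2097 to 2124 CPM) was low, as were Ccl2 at 1084 CPM in Ad-Lib 5 (the other 3 libraries of the group 1554 to 1649.6 CPM), Nr3c1 at 258 CPM in TAN 2 (the other 3 libraries of the group 331 to 346 CPM), Maoa at 56.3 CPM in Ad-Lib 3 (the other 3 libraries of the group 67.2 to 68.5 CPM), Tgfbi at 889 CPM in Ad-Lib 3 (the other 3 libraries of the group 1097 to 1111 CPM) and Cfd at 55.4 CPM in Ad-Lib 1 (the other 3 libraries of the group 69.4 to 70.7 CPM). High values were Lyz2 at 4344 CPM in TAN 6 (the other 3 libraries of the group 3998 to 4050.5 CPM) and Jun at 3821 CPM in Ad-Lib 7 (the other 3 libraries of the group 3061 to 3185 CPM).

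The TAN effect differed between the resident and the Lyve1-low macrophages in 4 genes of dividing cells by edgeR's test of the difference with Benjamini-Hochberg adjustment. The differences were -4.41 (SE 0.62, adjusted p = 0.00115) for Hist1h1b, -1.90 (SE 0.29, adjusted p = 0.00264) for Stmn1, -3.29 (SE 0.57, adjusted p = 0.0121) for Mki67 and -2.82 (SE 0.53, adjusted p = 0.0281) for Hist1h2ae, all on the log2 scale. The histone genes are similar in sequence, and counts of each copy are uncertain. Hist1h1b was too rare in the members to be tested in them alone and entered this test through the Lyve1-low cells.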

How the results depend on the processing

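The lower share of members among kept barcodes kept its direction and p in all gate alternatives, and leaving out 1 library gave -5.96 to -4.10 points (exact permutation p = 0.0571 without TAN 2, 4, 6 or 8 in turn). The lower share among C1q+ macrophages kept its direction and its p at a four-gene minimum of 5 and with doublets removed, and missed 0.05 in exact permutation tests at 2000 UMIs per cell (-4.07 points, p = 0.171), at a four-gene minimum of 2 (-6.31, p = 0.0857), at a C1q minimum of 10 (-5.59, p = 0.143) and at a mitochondrial limit of 20% (-6.93, p = 0.0571), and leaving out 1 library gave -8.29 to -4.79 points, missing 0.05 without any of the Ad-Lib libraries. The lower cycling share passed at 2000 UMIs per cell and without each library. Of the 36 genes called in members, none changed direction in 16 alternatives, 8 were never lost where tested and 28 were lost at least once. In the members nearly free of other-lineage UMIs 19 of the 36 could not be tested, among them all of the 8 but Ccnd1 and Lgals3. The count was 219 with no filter on low counts, where genes with too few counts for the main test are tested as well. It was 4 in the 710 members nearly free of other-lineage UMIs, where 4366 genes were tested, and 43 by DESeq2. With DESeq2's size factors it was 36, with no minimum fold 47, and under other gates and with doublets removed 31 to 43. It was 17 to 43 without 1 library (17 without Ad-Lib 1, 18 without TAN 2). In Lyve1-low cells it was 16 to 48, and in all C1q+ macrophages 49 of 9920 genes were called, 18 to 57 without 1 library (18 without TAN 2, 26 without Ad-Lib 1 or Ad-Lib 7, 27 without TAN 4). The 4 genes whose effect differed between populations became 0 with Lyve1-low cells at a four-gene sum of 0 (fewer cells, edgeR, 399 at an unadjusted p under 0.05) and 2 to 8 without 1 library (2 without TAN 4 or TAN 6, 7 without TAN 8, 8 without Ad-Lib 7). F13a1, near no change, turned positive, to 0.013 in members nearly free of other-lineage UMIs, and ranged from -0.093 to 0.0078 without 1 library. Other causes were not tested. No paired analysis was possible because the groups share no replicate number. With 218 to 685 members per library, genes under a few CPM rest on few UMIs, as the cycling list shows, of which 9 of 22 genes could be tested.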
